A study of Mus musculus with 6 samples.

Results

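Surfactant and alveolar type 2 genes were compared in whole lung between wild-type mice and mice carrying a transgene for Scnn1b (Scnn1b-Tg), the gene of the β chain of the sodium channel ENaC. The 10 genes, fixed by name, were Sftpa1, Sftpb, Sftpc, Sftpd, Abca3, Lamp3, Napsa, Nkx2-1, Lpcat1 and Slc34a2. All 10 were found among the 19935 genes measured, each through 1 probe set with a single gene symbol. The series holds 6 arrays, 3 of wild-type lung with no transgene named and 3 of Scnn1b-Tg lung, all on the C57BL/6 background, and was made to look for candidate genes of emphysema. The labels give no age, sex, treatment or batch and do not say whether each sample is another mouse, so the p-values rest on a spread between samples that may be technical. In the published Scnn1b-Tg line a club cell secretory protein promoter drives the transgene, so it is an airway model in which alveolar type 2 cells are not the intended target. The labels do not name the promoter.

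Alveolar type 2 cells line the air sacs, make pulmonary surfactant and renew the thin type 1 cells of the gas exchange surface. Surfactant is a film of phospholipid, mostly dipalmitoyl phosphatidylcholine, with the small hydrophobic proteins SP-B and SP-C, which lower surface tension, and the collectins SP-A and SP-D, which bind microbes and help regulate surfactant turnover. Lipid and hydrophobic proteins are packed into lamellar bodies, secreted, and later taken back up by type 2 cells or cleared by alveolar macrophages. The transcription factor NKX2-1, together with forkhead factors of the FOXA family, drives many of these genes.

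Scnn1b itself checked the labels. Its intensity was 172, 108 and 139 on the wild-type arrays and 1405, 1527 and 1333 on the Scnn1b-Tg arrays, a log2 fold change of 3.37 ± 0.16 (SE, n = 3 per group) with a limma adjusted p of 0.00241, and it was the only gene called. The median intensity per array was 47.6 to 48.5 and the minimum 18.3 to 18.6. A pair of arrays stood apart in a principal component analysis of all genes: wild type replicate 2 scored 16.3 on component 1 (34.0% of variance; other arrays -8.91 to 5.46), and Scnn1b-Tg replicate 3 scored 13.3 on component 2 (22.6%; other arrays -8.03 to 2.47). The intensities are of single probe sets and do not rank genes by the amount of their RNA. In whole lung, fewer type 2 cells and less RNA per type 2 cell cannot be told apart.

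None of the 10 genes differed between the genotypes beyond the spread of the arrays. With limma, 0 of 10 passed an adjusted p under 0.05, against 0.00502% of all genes, and 0 of 10 had an unadjusted p under 0.05, against 6.01% of all genes. The arrays of the 2 genotypes overlapped for all 10, so that 0 lay wholly higher and 0 wholly lower in Scnn1b-Tg. Of all genes 6.26% lay wholly higher and 4.41% wholly lower, together 10.7%. The members' log2 differences (Scnn1b-Tg minus wild type) ran from -0.19 for Lamp3 to 0.14 for Sftpa1, with 6 above 0 and 4 below; Sftpc and Slc34a2 turned below 0 when arrays were centred on their medians. Quantile normalization fixes Sftpc at 0, since exactly 1 gene was brighter on each of the 6 arrays, so that setting says nothing about it. Their median was 0.0073, and that of all genes was 0.0052. The 95% intervals of limma for the 10 fold changes, not adjusted for their number, all covered 1 and lay between 0.719-fold and 1.34-fold.

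The 250 bases upstream of the annotated start were available for 7 members in RefSeq's GRCm38.p6 tables, and those of Sftpb, Sftpa1 and Lamp3 are shown. Sftpb and Sftpa1 are textbook targets of NKX2-1, whose own gene is among the members, and Lamp3 is the member with the largest difference. Capitals mark CTCAAG, a core of the NKX2-1 site, and TGTTTNC, a core of the forkhead site, each searched on both strands, with no overlap between matches. Sequences run 5′ to 3′ on the gene's strand.
Sftpb, chr6:72304360-72304609, plus strand: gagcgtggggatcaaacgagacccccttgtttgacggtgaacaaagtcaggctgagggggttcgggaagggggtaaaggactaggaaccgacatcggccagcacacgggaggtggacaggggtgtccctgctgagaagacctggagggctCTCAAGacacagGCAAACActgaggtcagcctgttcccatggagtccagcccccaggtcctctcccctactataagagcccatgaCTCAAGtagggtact
Sftpa1, chr14:41131538-41131787, plus strand: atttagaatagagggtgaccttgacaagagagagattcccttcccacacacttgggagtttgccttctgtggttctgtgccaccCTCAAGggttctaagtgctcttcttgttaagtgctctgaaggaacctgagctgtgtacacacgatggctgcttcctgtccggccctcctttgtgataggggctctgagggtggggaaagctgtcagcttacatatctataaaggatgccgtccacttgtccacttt
Lamp3, chr16:19706366-19706615, minus strand: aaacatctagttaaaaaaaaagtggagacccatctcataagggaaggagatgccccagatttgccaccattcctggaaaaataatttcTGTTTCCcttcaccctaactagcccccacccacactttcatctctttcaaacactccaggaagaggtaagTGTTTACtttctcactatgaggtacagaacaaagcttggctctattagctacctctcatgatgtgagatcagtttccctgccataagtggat
The window of Sftpb held CTCAAG at 2 places, beginning 100 and 15 bases before the start, with the forkhead core between them, 88 bases before the start and on the opposite strand. Sftpa1 held CTCAAG once, 166 bases before its start. Lamp3 held the forkhead core at 2 places, 162 and 92 bases before its start. Of the 7 member windows, 2 held CTCAAG (Sftpb and Sftpa1) and 2 held TGTTTNC (Sftpb and Lamp3). Across all 32851 windows of this length, 13.3% held CTCAAG and 17.8% held TGTTTNC. A match is a description of the letters, and binding was not measured.

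**Figure D1:**
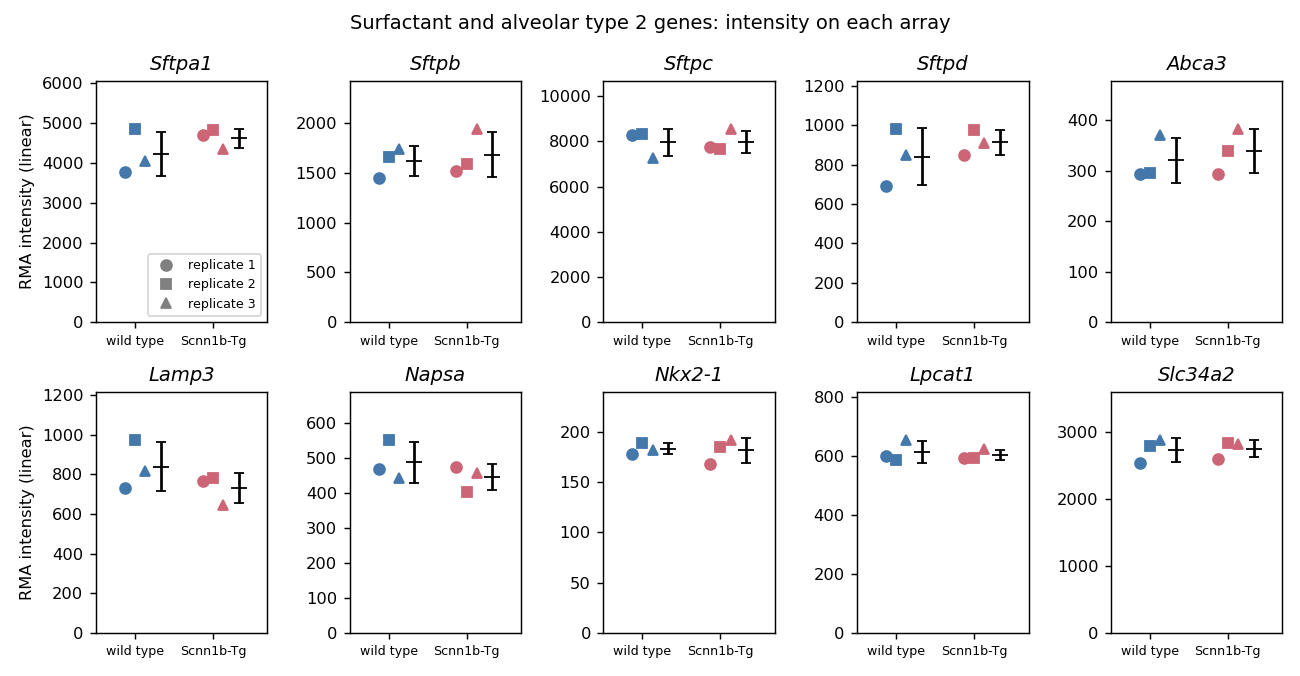
Linear RMA intensity of the 10 genes on each array (circle, square and triangle for replicates 1, 2 and 3; wild type blue, Scnn1b-Tg red), with the mean and SD of 3 arrays in black. The y axis starts at 0 and differs between panels, and in each panel the arrays of both genotypes overlap.

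The hydrophobic surfactant proteins had nearly the same mean in both genotypes. Sftpc, which encodes the precursor of SP-C and is the classic marker of alveolar type 2 cells, had intensities of 8266, 8338 and 7241 in wild type and 7730.1, 7656 and 8534 in Scnn1b-Tg. The highest value was on Scnn1b-Tg replicate 3 and the lowest on wild type replicate 3, with the other Scnn1b-Tg arrays between them. Means were 7948 ± 614 (SD, n = 3) and 7973 ± 487, a log2 fold change of 0.0057 ± 0.07 (SE; limma adjusted p = 0.997) with a 95% interval of 0.890-fold to 1.13-fold. Only 1 of the 19935 genes had a higher mean intensity, and the brightest probe set of each array read between 9695 and 11519. Sftpc was thus read near the top of the arrays' range, and whether the signal was still proportional to RNA there was not tested. Sftpb, which encodes the precursor of SP-B, a protein without which newborns cannot breathe, gave 1452, 1660.1 and 1739 in wild type and 1516, 1589 and 1937 in Scnn1b-Tg. Scnn1b-Tg replicate 3 was the highest of the 6 and the other 2 transgenic arrays lay within the wild-type range. The log2 fold change of Sftpb was 0.05 ± 0.11 (limma adjusted p = 0.994), with an interval of 0.868-fold to 1.24-fold.

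The collectins gave the 2 largest positive differences among the members. Sftpa1, encoding SP-A, gave 3779, 4847 and 4048 in wild type and 4705, 4816 and 4357 in Scnn1b-Tg. All 3 transgenic arrays were above wild type replicates 1 and 3, and wild type replicate 2 was above all of them. Means were 4224 ± 556 (SD, n = 3) and 4626 ± 239, a log2 fold change of 0.14 ± 0.10 (limma adjusted p = 0.916; interval 0.941-fold to 1.29-fold). Without wild type replicate 2 it was 0.24 (limma unadjusted p = 0.0100, adjusted p = 0.751), and with replicate 1 of wild type left out instead it was 0.06 (limma unadjusted p = 0.526, adjusted p = 0.921). Sftpd, encoding SP-D, gave 692, 980.03 and 851.3 in wild type and 850.6, 978 and 912 in Scnn1b-Tg. Here too wild type replicate 1 was the lowest of the 6 and wild type replicate 2 the highest. The log2 fold change of Sftpd was 0.13 ± 0.12 (limma adjusted p = 0.951; interval 0.893-fold to 1.34-fold), and without wild type replicate 1 it was -0.0023. The 2 collectins deviated alike on some arrays and not on others. Relative to their own means over the 6 arrays, on the log2 scale, Sftpa1 and Sftpd lay at -0.22 and -0.33 on wild type replicate 1, at 0.14 and 0.17 on wild type replicate 2 and at 0.13 and 0.17 on Scnn1b-Tg replicate 2. On wild type replicate 3 they lay at -0.12 and -0.03, and their signs were opposite on Scnn1b-Tg replicate 1 (0.09 and -0.03) and replicate 3 (-0.02 and 0.06).

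Genes of the lamellar body and of SP-B and SP-C processing gave small differences of both signs. Lamp3, which encodes DC-LAMP, a membrane protein of lamellar bodies also found in mature human dendritic cells, gave 730.4, 974 and 816 in wild type and 769, 782 and 646 in Scnn1b-Tg. Wild type replicate 2 was the highest and Scnn1b-Tg replicate 3 the lowest, while the remaining 4 arrays lay between 730.4 and 816. Means were 840.2 ± 124 (SD, n = 3) and 732 ± 75.0, a log2 fold change of -0.19 ± 0.12 (limma adjusted p = 0.904; interval 0.719-fold to 1.06-fold). Without those 2 extreme arrays the log2 fold change of Lamp3 was 0.0064, and without wild type replicate 1 it was -0.29 (limma unadjusted p = 0.0441, adjusted p = 0.573). Napsa, the aspartic protease napsin A that takes part in cutting the SP-B precursor, gave 469.5, 553 and 442 in wild type and 477, 403 and 459 in Scnn1b-Tg. As for Lamp3, wild type replicate 2 was the highest of the 6, and the transgenic arrays fell on both sides of wild type replicate 3. Its log2 fold change was -0.13 ± 0.10 (limma adjusted p = 0.931; interval 0.779-fold to 1.08-fold). Leaving out wild type replicate 2 gave -0.03 for Napsa, leaving out Scnn1b-Tg replicate 2 gave -0.06, and leaving out wild type replicate 3 gave -0.20. Abca3, the transporter that loads phospholipid into lamellar bodies, gave 294, 297 and 372 in wild type and 295, 340.4 and 383 in Scnn1b-Tg. Each genotype held both low and high arrays, and the log2 fold change was 0.08 ± 0.12 (limma adjusted p = 0.987; interval 0.863-fold to 1.30-fold).

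The regulator, the lipid enzyme and the phosphate carrier had the narrowest intervals beside Sftpc. Nkx2-1 gave 178, 189 and 182 in wild type and 168, 185 and 192 in Scnn1b-Tg, so the transgenic arrays spanned the wild-type range on both sides. Means were 183 ± 5.49 (SD, n = 3) and 182 ± 12.6, a log2 fold change of -0.013 ± 0.06 (limma adjusted p = 0.995; interval 0.896-fold to 1.096-fold). Lpcat1, the acyltransferase that makes dipalmitoyl phosphatidylcholine in type 2 cells, gave 597, 584 and 653 in wild type and 591, 593 and 623 in Scnn1b-Tg. All 3 transgenic arrays lay inside the wild-type range, and the log2 fold change was -0.020 ± 0.06 (limma adjusted p = 0.995; interval 0.898-fold to 1.08-fold). Slc34a2, the sodium-dependent phosphate carrier of the type 2 cell surface, gave 2531, 2790.3 and 2875 in wild type and 2593, 2828 and 2819.8 in Scnn1b-Tg, again all inside the wild-type range. Its log2 fold change was 0.0088 ± 0.06 (limma adjusted p = 0.995; interval 0.905-fold to 1.12-fold).

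**Figure D2:**
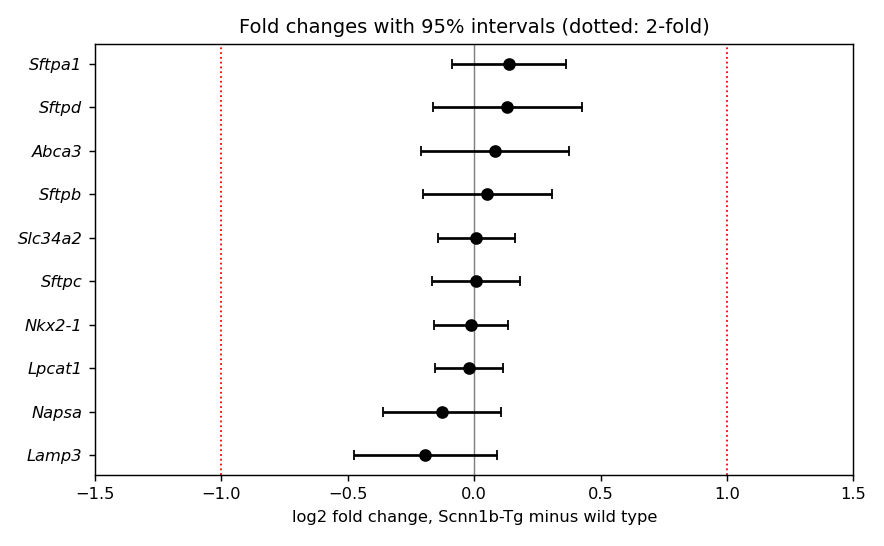
Log2 fold change of each gene (Scnn1b-Tg minus wild type, points) with its 95% interval from limma (bars, 3 arrays per group, not adjusted for the number of genes); dotted lines mark 2-fold. All 10 intervals cover 0 and stay well inside the dotted lines, with Lamp3 (-0.19) and Sftpa1 (0.14) at the ends.

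On some arrays most members deviated the same way, though not by genotype. On wild type replicates 1 to 3, 2, 8 and 5 of the 10 lay above their own mean, and on Scnn1b-Tg replicates 1 to 3, 2, 6 and 7. Averaged over the 10, the log2 deviation from each gene's own mean was -0.11, 0.08 and 0.01 on wild type replicates 1 to 3 and -0.05, 0.0083 and 0.05 on Scnn1b-Tg replicates 1 to 3, so that the wild-type arrays held both the lowest and the highest value. Wild type replicate 1 was the dimmest array for 5 of 10 members (Sftpa1, Sftpb, Sftpd, Abca3 and Slc34a2). Wild type replicate 2 was the brightest for 4 (Sftpa1, Sftpd, Lamp3 and Napsa), and Scnn1b-Tg replicate 3 for another 4 (Sftpb, Sftpc, Abca3 and Nkx2-1). The median SD within a genotype was 0.145 over the members and 0.0809 over all genes, on the log2 scale. Those medians were not matched for intensity. The members were bright, with from 1 (Sftpc) to 2887 (Nkx2-1) of the 19935 genes having a higher mean. The genes with the widest range over the 6 arrays were Lamp3 (0.59) and Sftpd (0.50), and those with the narrowest were Lpcat1 (0.16) and Slc34a2 (0.18).

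**Figure D3:**
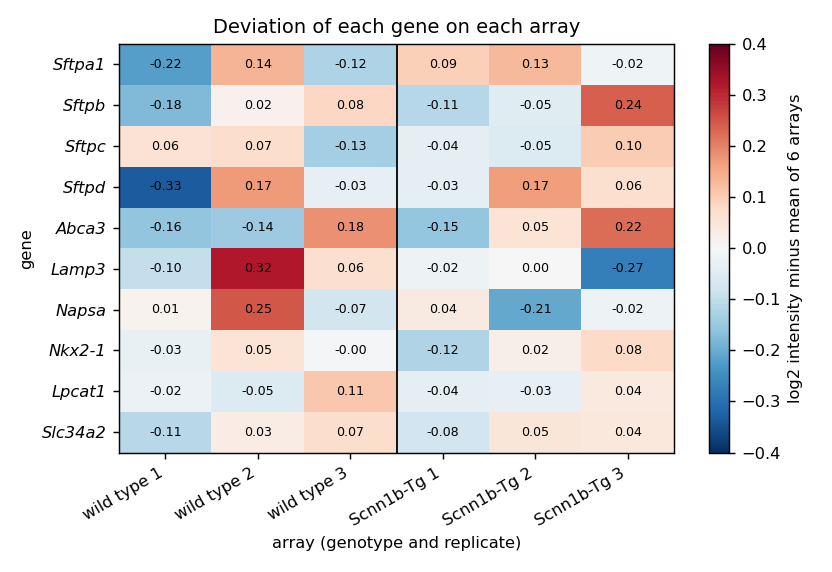
Log2 intensity of each gene (rows) on each array (columns) minus that gene's mean over the 6 arrays; red is above and blue below, and the black line parts the genotypes. Wild type replicate 1 is the lowest for Sftpa1 (-0.22) and Sftpd (-0.33), and Lamp3 runs from 0.32 on wild type replicate 2 to -0.27 on Scnn1b-Tg replicate 3.

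The 5 genes closest to the members' mean profile, by root mean square difference of mean-centred log2 values over the 6 arrays, were Esco1 (0.0087), Wasl (0.023), Fam117b (0.026), Ccdc91 (0.026) and Mertk (0.027). They were taken from 7692 genes that were at least as bright as the median gene and varied at least as much as that profile, whose own range was 0.19. No other gene of the surfactant lists was among them, and Mertk, a receptor for the uptake of dying cells, stands on the macrophage list. As list means without the members, other lists shared the low wild type replicate 1 and high wild type replicate 2. These 2 arrays were the lowest and highest for the other type 2 markers (-0.09 and 0.05), the ciliated list (-0.11 and 0.07) and the club cell list (-0.08 and 0.08). No further list had both. The profile was thus not particular to the members.

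The other genes of surfactant metabolism, counted without the members, gave 0 calls with limma in every list. Counts at an unadjusted p under 0.05 are to be read against 6.01% of all genes, and counts of groups that did not overlap against 10.7%. Of 28 measured genes of surfactant lipid synthesis 17 were higher and 11 lower, with a median log2 difference of 0.03, against 0.0052 for all genes. An unadjusted p under 0.05 was reached by 2 higher and 1 lower, and the groups did not overlap for 5 (17.9%), 3 higher and 2 lower. The largest difference was 0.59 ± 0.12 for Lpcat2, the Lpcat1 relative of inflammatory cells that also makes platelet-activating factor (67.5 to 80.3 in wild type, 96.1 to 131 in Scnn1b-Tg; limma adjusted p = 0.324). Fasn, the fatty acid synthase, came next at 0.22 ± 0.10 (limma adjusted p = 0.862). The paralogues thus gave different values, with Lpcat2 separate between the genotypes and Lpcat1 overlapping; the difference between them was not tested. Of 19 lamellar body processing and secretion genes 12 were higher and 7 lower, with a median of 0.08, and 3 higher and 0 lower had an unadjusted p under 0.05. The groups did not overlap for 5 of these 19 (26.3%), all 5 higher: Hps1 (0.15 ± 0.05) and Hps4 (0.12 ± 0.06), which act in the making of lysosome-related organelles, Lyst (0.18 ± 0.06), which controls their size, the lysosomal cholesterol carrier Npc2 (0.08 ± 0.04) and P2ry2. Apart from P2ry2 they were named after their values were seen. Hps1 was dim, at 40.6 to 47.8, below the median intensity of each array. P2ry2, the ATP receptor that triggers surfactant secretion, gave 0.22 ± 0.08 (limma adjusted p = 0.773), and Fam13a gave -0.21 ± 0.13 (limma adjusted p = 0.904). Of 16 surfactant uptake and clearance genes 12 were higher and 4 lower, with a median of 0.07 and 2 higher and 0 lower at an unadjusted p under 0.05; the groups did not overlap for 2 (12.5%), both higher. Csf2rb, the shared β chain of the GM-CSF receptor by which macrophages clear surfactant, gave 0.31 ± 0.10 (limma adjusted p = 0.709), and the scavenger receptor Lrp1 gave 0.23 ± 0.10 (limma adjusted p = 0.822). Csf2rb has a close copy in the mouse, and its probe set may read both.

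Of the 23 other genes on the list of lung epithelial transcription factors 12 were higher and 11 lower, with a median of 0.00037. An unadjusted p under 0.05 was reached by 2 higher and 0 lower, 0 were called with limma, and the groups did not overlap for 5 (21.7%), 3 higher and 2 lower. Id2, an inhibitor of helix-loop-helix factors in distal lung progenitors, gave 0.18 ± 0.11 (limma adjusted p = 0.897), and Elf3, an epithelial ETS factor, gave 0.16 ± 0.05 (limma adjusted p = 0.757). Tcf21 (-0.02 ± 0.08) stands on the fibroblast and smooth muscle list as well, so not every gene counted here is particular to epithelium. Hopx, Cebpa, Etv5 and Srebf1 are also counted in other lists.

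Further markers of alveolar type 2 cells lay on both sides of 0. Of 28 measured, 15 were higher and 13 lower with a median log2 difference of 0.0088. With limma 0 were called, 4 higher and 0 lower had an unadjusted p under 0.05, and the groups did not overlap for 4 (14.3%, against 10.7% of all genes). The largest differences belonged to Lcn2, an iron-scavenging acute phase protein also made by neutrophils and airway epithelium (439 to 557 in wild type, 608 to 994 in Scnn1b-Tg; 0.65 ± 0.18, limma adjusted p = 0.575), and Chil1, a chitinase-like protein shared with macrophages (0.37 ± 0.09, limma adjusted p = 0.440). Both gave larger differences than any of the 10 members, whose largest was -0.19.

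Marker lists of the other cell types were set beside these. Of 20 alveolar type 1 markers 8 were higher and 12 lower, with a median of -0.012, 0 calls and 1 lower at an unadjusted p under 0.05; the largest differences were -0.22 ± 0.11 for Ndnf and 0.17 ± 0.12 for Krt7. Of 13 genes of the transitional state between type 2 and type 1 cells 10 were higher, with a median of 0.06, 0 calls and 4 higher at an unadjusted p under 0.05. Its largest values were 0.48 ± 0.08 for Lgals3, galectin-3, which macrophages also make in quantity (limma adjusted p = 0.205), and 0.36 ± 0.15 for Fn1 (limma adjusted p = 0.822). Of 19 club cell markers 5 were higher and 14 lower, with a median of -0.12. That median is the value of Kdr, which stands on the endothelial list as well and counts as lower in both. The groups did not overlap for 7 club genes (36.8%), 5 lower and 2 higher. The 5 lower genes, named after their values were seen, were Cyp2f2 (-0.48 ± 0.08, limma adjusted p = 0.205), the secretoglobin Scgb1a1, the main secretory protein of club cells (-0.31 ± 0.07, limma adjusted p = 0.398), Pon1 (-0.68 ± 0.22), Gsta3 (-0.65 ± 0.20) and Cckar (-0.30 ± 0.07). The largest and the only non-overlapping positive values of that list were 1.54 ± 0.34 for Retnla, which type 2-activated macrophages also express, and 0.75 ± 0.19 for Reg3g. Of 12 ciliated cell markers 7 were higher and 5 lower (median 0.010, Tppp3 -0.21 ± 0.12, Dnah5 0.16 ± 0.11). Several ciliated markers were dimmer than the median intensity per array, down to a mean of 27.5 for Pifo. Whether they were detected was not tested, so that median says little about ciliated cells. Of 16 endothelial markers 14 were lower (median -0.04; Ednrb -0.33 ± 0.11, Hpgd -0.25 ± 0.06), and of 16 fibroblast and smooth muscle markers 11 were higher (median 0.08; Col1a1 0.30 ± 0.16, Col1a2 0.17 ± 0.17). None of these genes was called with limma. An unadjusted p under 0.05 was reached by 3 higher and 5 lower club cell genes, by 3 lower endothelial genes, and by 0 in the ciliated and fibroblast lists.

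As a sum, macrophage markers were brighter on every Scnn1b-Tg array than on any wild-type array. Of 18 measured, 16 were higher and 2 lower in Scnn1b-Tg with a median of 0.35, 12 higher and 0 lower had an unadjusted p under 0.05, and 12 (66.7%) had groups that did not overlap. With limma 0 were called. The groups overlapped for the other 6: Fabp4 (0.76 ± 0.36), Trem2 (0.17 ± 0.11), Mertk (0.04 ± 0.07), Marco (0.012 ± 0.12), Car4 (-0.06 ± 0.10) and Krt79 (-0.14 ± 0.10). The higher signal was thus not shared by every marker of the list. Chil3, the macrophage chitinase-like protein Ym1, gave 1.34 ± 0.19 (limma adjusted p = 0.146), although close copies may share its probes, and Itgam gave 0.91 ± 0.15 (limma adjusted p = 0.205). The summed intensity of the list was 2828 to 3146 on the wild-type arrays and 4541 to 5094 on the Scnn1b-Tg arrays, a ratio of means of 1.62. Chil3 carried most of that: the other 17 markers summed to 2002 to 2088 and 2346 to 2596, a ratio of 1.20, still with no overlap. Car4, the brightest of those 17 by mean (460 in wild type and 445 in Scnn1b-Tg), stands on the endothelial list as well. The ratio without Car4 was not computed. The dimmest marker by mean was Krt79 at 47.1, close to the median intensity per array (47.6 to 48.5). Whether each marker was detected was not tested. Over the same arrays the summed intensity of the 10 members was 18989 to 21212 in wild type and 19693 to 20862 in Scnn1b-Tg, so the transgenic range lay within the wild-type range. The part of the higher macrophage marker signal in the values of the members, and in those of genes the cell types share such as Lcn2, Chil1, Lgals3 and Lpcat2, was not tested.

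**Figure D4:**
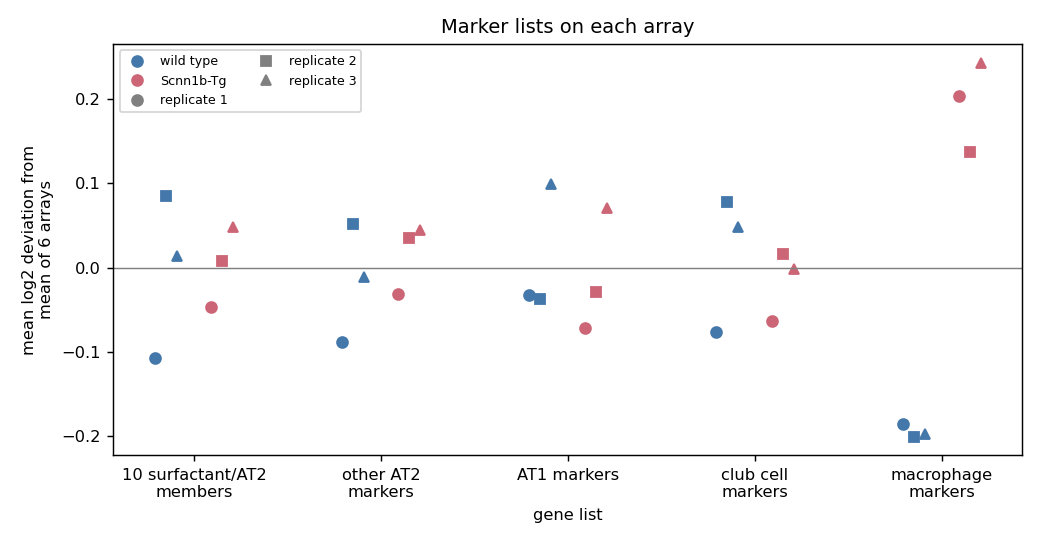
Mean log2 deviation from the 6-array mean for 5 gene lists (x axis) on each array (circle, square and triangle for replicates 1, 2 and 3; wild type blue, Scnn1b-Tg red). The macrophage list is separate between genotypes (-0.20 to -0.19 in wild type, 0.14 to 0.24 in Scnn1b-Tg), while the members and the other type 2 markers overlap.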

How the data were processed

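Lung total RNA was labelled by a whole-transcript method and read on Affymetrix arrays, per the labels' protocols. Each deposited column holds the intensities of 1 array by probe set, which the authors computed with RMA, as the submitters' processing notes state. Its settings were not given in the sources used here. The linear scale was read from the values, and no array files were used. Of 28815 probe sets 21780 had 1 gene symbol in the platform annotation, 1605 several and 5430 none; the brightest probe set per gene was kept, which left 19935 genes. Groups follow the genotype in the labels.

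The test was limma 3.58.1 (R 4.3.3; lmFit, then eBayes) on log2 values with genotype as the only term and 6.99 moderated degrees of freedom. P-values are two-sided, were adjusted by Benjamini-Hochberg across the whole table, and gave a call under 0.05. Errors of log2 values are standard errors, and intensities are given with the SD of 3 arrays, whose number limits the precision. The fit was tested on simulated data with independent noise and added shifts larger than any member's difference. That test says nothing about the power to find differences as small as those of the members. Members, gene lists and alternatives were chosen with earlier results of these data known. Named were all members, Scnn1b, the 2 list genes with the largest absolute difference where a list held no call, and the 5 genes nearest the members' mean profile. Alternatives were scaling, a filter on dim genes, the probe set rule, the variance model, array weights, subtracting 16 from each intensity, a replicate block and arrays left out. Promoter windows come from RefSeq (GRCm38.p6), which is not tied to the arrays' own annotation; gene positions were not used.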

Additional observations from a re-analysis of the deposited data

How the results depend on the processing

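Under all 15 alternatives 0 of the 10 members were called, with the smallest adjusted p of any member between 0.427 and 1.00. Their median log2 fold change stayed within 1 SD of the array means (0.0767), from -0.04 to 0.05. Sftpa1 and Napsa kept their sign in all 15 alternatives, and the other 8 changed sign in at least 1. Lamp3 did so only without Scnn1b-Tg replicate 3 and wild type replicate 2, its lowest and highest arrays. Median centring gave -0.020 for Sftpc and -0.017 for Slc34a2. Array weights gave -0.014 for Sftpb and -0.0029 for Slc34a2. Without the pair of arrays that stood apart (Scnn1b-Tg replicate 3 and wild type replicate 2) the values were -0.034 for Sftpb, -0.0082 for Sftpc, -0.062 for Abca3 and 0.0064 for Lamp3. Sftpa1 kept its sign there at 0.28 (limma unadjusted p = 0.0042, adjusted p = 0.427), the smallest unadjusted p of any member in any setting. Over single arrays and that pair left out, Sftpb ran from -0.055 to 0.12, Sftpc from -0.060 to 0.042, Sftpd from -0.0023 to 0.25, Abca3 from -0.062 to 0.19, Lamp3 from -0.29 to 0.0064, Nkx2-1 from -0.055 to 0.043, Lpcat1 from -0.078 to 0.028 and Slc34a2 from -0.045 to 0.050. Sftpa1 ran from 0.061 to 0.28 and Napsa from -0.20 to -0.034. Quantile normalization holds Sftpc at 0 by construction, as its rank is the same on every array.

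The count of all genes called, 1 as reported, was 39 with the 6645 dimmest genes left out (fewer genes tested), 36 with an intensity trend and robust variance, 23 with 16 subtracted, and 6 without that pair of arrays; the cause was not tested. Over single arrays left out it ran from 0 (without wild type replicate 3) to 5 (without Scnn1b-Tg replicate 3). Whether the replicate numbers pair the samples could not be settled. Deviations of same-numbered arrays correlated at 0.0257, 0.0284 and 0.0395 across genes, and those of other pairs at -0.0631 to 0.0236. Every array correlated best with its own number, but the correlations were small and had no reference spread to be judged by. With a replicate block 3 genes and 0 members were called. Signal limits are that Sftpc was read near the top of the arrays' range, and that 3 arrays per group left intervals as wide as 0.719-fold to 1.06-fold for Lamp3.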
